A study of Mus musculus with 6 samples.

Results

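The genes described here are those whose span in the authors' comparison table overlaps chr7:29818357-31823775 (mm10), the stretch from 1 Mb below to 1 Mb above the gene of free fatty acid receptor 2, Ffar2 (chr7:30818357-30823775). Of 78 listed genes in that stretch, 18 were set aside by name (the Ffar genes and several zinc finger, respiratory chain and ribosomal gene families), and 11 had fewer than 10 counts over the 6 libraries together. The other 49, of 22923 gene names in the count table, are described here. The last gene inside the count limit was Gm10640 with 10 counts in all, and the first outside it was Upk1a with 8. The 49 genes ran from 638 kb below Ffar2 to 339 kb above it, with 33 below and 16 above, 19 on the plus and 30 on the minus strand. A total of 44 had enough counts to be tested between genotypes, and 5 (Hcst, Zbtb32, Mag, Hamp and Gm10640) did not.

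The RNA came from isolated pancreatic islets, the clusters of insulin-, glucagon- and somatostatin-secreting cells that lie within the exocrine pancreas. There were 3 WT libraries and 3 labelled FFA2 global KO, each from the pooled islets of 2 mice fed normal chow. The labels give an age of 10 to 12 weeks for both groups, and the supplement of the study states that the mice were male and gives a somewhat older range. Per the methods, heterozygous carriers of an Ffar2 deletion on a C57BL/6J background were intercrossed to give both genotypes, so the deletion was in every tissue. The comparison asks how RNA levels of the neighbours of Ffar2 differed between islets of the genotypes.

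FFA2 is a G protein-coupled receptor for short-chain fatty acids such as acetate, and its gene lies in a cluster with Ffar1 and Ffar3, which encode related receptors for long- and short-chain fatty acids. The neighbourhood is gene-dense and its genes are not one pathway. It holds genes of ion transport (the gastric proton pump subunit Atp4a and a group of FXYD genes, whose small membrane proteins modulate the sodium pump), of the filtration barrier of the kidney (Nphs1 and Kirrel2), of iron control (the hepcidin genes), of gamma-secretase (Psenen), of epidermal secretion (Sbsn and Dmkn) and of immune cells (Tyrobp, Hcst and Cd22).

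The target was checked against the labels before any other gene. Ffar2 was at 34.1, 27.0 and 26.5 CPM (counts scaled to a common library size, after TMM) in WT replicates 1 to 3 and at 71.8, 43.9 and 46.1 CPM in the libraries labelled FFA2 global KO. Every library labelled as lacking the gene was above every WT library (log2 fold change 0.89, SE 0.21), so Ffar2 RNA goes against its label, and each direction below is between libraries as labelled. Whether the counted part of Ffar2 lies in the deleted sequence is not given in the sources used here. Ffar3 (log2 fold change -1.11, SE 0.17) and Ffar1 (-0.73, SE 0.24) were lower in the libraries labelled KO, with no overlap between groups. Libraries held 17067263 to 22792367 counts over the genes used. The 25 acinar genes, which mark the enzyme-secreting exocrine cells around the islets, took 1.40% to 5.44% of the counts in WT and 1.55%, 10.1% and 25.9% in replicates 1, 2 and 3 labelled KO. All 17 endocrine islet markers were tested, with summed levels of 15692 to 17413 CPM in WT and 12271 to 15999 CPM in the libraries labelled KO, so the labelled tissue was present in every library. In bulk RNA, fewer cells of a type and less RNA per cell cannot be told apart.

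By edgeR's quasi-likelihood test over all 14082 genes tested, none of the 44 neighbours had a Benjamini-Hochberg adjusted p under 0.05, and none of all genes did (0%). At an unadjusted p under 0.05 there were 13 of 44 neighbours (29.5%), 9 lower and 4 higher in the libraries labelled KO, beside 4.69% of all genes (2.12% lower and 2.58% higher). Of these 13, 12 shared an adjusted p of 0.852, and Atp4a had the smallest adjusted p of all genes, 0.0741. DESeq2 called 4 neighbours at an adjusted p under 0.05 (among them Atp4a, 2200002J24Rik and Alkbh6, all lower) and 8 genes in all (0.0448%). With limma-voom, 0 neighbours passed after adjustment and 12 had an unadjusted p under 0.05, beside 4.47% of all genes by that test. The CPM of the 3 libraries of one group all lay above those of the other for 15 of 44 neighbours (34.1%), 10 with the libraries labelled KO below and 5 with them above, beside 11.2% of all genes (5.84% below and 5.36% above).

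Without WT replicate 2 the count was 8 neighbours at an unadjusted p under 0.05, with the share over all genes falling to 1.58%. Of the 13 genes, 8 kept an unadjusted p under 0.05 whichever library was left out (among them Alkbh6, 2200002J24Rik, Atp4a, Tmem147, Sbsn, Prodh2 and Hspb6), and all 13 kept their sign. Rbm42, Clip3, Tyrobp, Kirrel2 and Dmkn did not keep an unadjusted p under 0.05 in every such fit. The count of neighbours with no overlap was 23 of 44 without WT replicate 1 (52.3%), where fewer libraries have to separate and the share over all genes was 25.6%. The median log2 fold change of the 44 was -0.07, beside 0.02 over all genes, with 25 genes below 0 and 19 above and a range from -3.01 to 3.44.

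**Figure D1:**
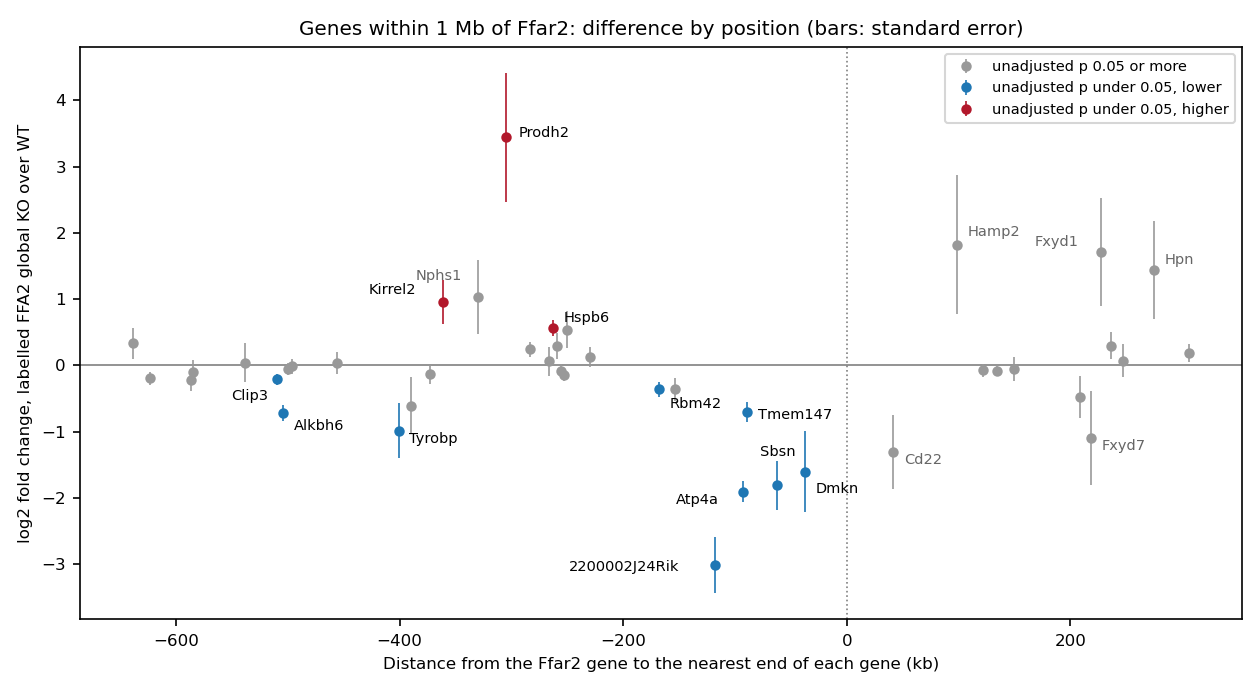
Log2 fold change of 43 of the 44 tested neighbours (libraries labelled FFA2 global KO over WT) against distance from Ffar2 in kb, with bars for 1 standard error. Blue points are the 9 genes that were lower and red points 3 that were higher at an unadjusted p under 0.05. The genes nearest to Ffar2 on its lower-coordinate side are all blue, from 2200002J24Rik at -3.01 to Tmem147 at -0.71, and Prodh2 at 3.44 is the highest point.

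Of the 18 tested neighbours within 250 kb of Ffar2, 6 had an unadjusted p under 0.05 and all 6 were lower in the libraries labelled KO, with a median log2 fold change of -0.36. Between 250 and 500 kb, 5 of 19 did, of which 4 were higher and 1 lower (median 0.18). Between 500 and 750 kb, 2 of 7 did, both lower (median -0.20). Differences between the distance bins were not tested. On the lower-coordinate side of Ffar2, 12 of the 31 genes tested had an unadjusted p under 0.05, and on the other side 1 of 13 did. The difference between the sides was not tested. Farther out on chromosome 7, at 1 to 10 Mb, the same limit was met by 19 of 150 genes (12.7%), 9 lower and 10 higher, and in the rest of the genome by 615 of 13791 (4.46%). Unlike among the neighbours, no gene families were set aside by name in these comparison sets.

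The 5 of these 49 genes nearest to Ffar2 on its lower side were all lower in the libraries labelled KO, with no overlap between groups. From far to near they are 2200002J24Rik, an uncharacterized protein-coding gene, Atp4a, the catalytic subunit of the proton-potassium pump that acidifies the stomach, Tmem147, a membrane protein of the endoplasmic reticulum, and Sbsn and Dmkn, suprabasin and dermokine, which are secreted in the differentiating epidermis. Their spans end between 37 and 118 kb below the start of Ffar2.

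Atp4a (chr7:30712232-30725534, plus strand) was at 17.2, 15.4 and 13.4 CPM in WT replicates 1 to 3 and at 4.39, 3.81 and 4.04 CPM in replicates 1 to 3 labelled KO. The 3 libraries labelled KO lay close together and well below the lowest WT library. The means were 15.3 ± 1.89 and 4.08 ± 0.294 CPM (SD, n = 3 each), a 3.75-fold lower level, with a log2 fold change of -1.91 (SE 0.16, 95% interval -2.28 to -1.53, edgeR adjusted p = 0.0741). Leaving out each library in turn kept the log2 fold change between -2.0 and -1.82. The adjusted p was 1.41e-15 with DESeq2, the smallest over the alternatives run, and the largest was 0.994 with the replicate number as a block. The 4 markers of the parietal cell, the stomach cell that uses this pump, summed to at most 0.194 CPM in any library, and 2 of the 4 were at 0 in all 6.

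2200002J24Rik (chr7:30698926-30700534, plus strand) had 51, 33 and 28 counts in WT and 7, 2 and 3 in the libraries labelled KO. Those are 2.24, 1.6 and 1.35 CPM against 0.287, 0.117 and 0.206 CPM. No library labelled KO came near a WT library, although the counts were low in all. The summed counts gave a level 8.15-fold higher in WT, with a 95% counting interval of 4.49 to 16.2, which covers counting error only. The fitted log2 fold change was -3.01 (SE 0.43, edgeR adjusted p = 0.852; DESeq2 adjusted p = 0.0114).

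Tmem147 (chr7:30727701-30729534, minus strand), whose 3′ end faces that of Atp4a across 2166 bases, was at 72.4, 67.9 and 57.0 CPM in WT and 34.1, 39.0 and 48.0 CPM in the libraries labelled KO. By the authors' RPKM, which are per length, it was the most abundant of the 5 genes. The highest library labelled KO lay below the lowest WT library. The means of 65.7 ± 7.90 and 40.4 ± 7.03 CPM (SD, n = 3 each) gave a log2 fold change of -0.71 (SE 0.15, 95% interval -1.07 to -0.34, edgeR adjusted p = 0.852).

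Sbsn (chr7:30751471-30756134, plus strand) was at 1.41, 1.26 and 1.06 CPM in WT and 0.410, 0.410 and 0.206 CPM in the libraries labelled KO. The groups did not overlap, at 32, 26 and 22 counts against 10, 7 and 3, and the summed level was 3.49-fold higher in WT (95% counting interval 2.12 to 6.02; log2 fold change -1.81, SE 0.37). In GENCODE M21 an exon of Sbsn shares bases with Tmem147os on the same strand, so its counts may hold reads of that gene. Dmkn (chr7:30763756-30781066, plus strand) had 15, 23 and 10 counts in WT and 9, 1 and 4 in the libraries labelled KO. Its lowest WT library was only just above the highest labelled KO, and the summed level was 2.99-fold higher in WT (95% counting interval 1.62 to 5.88; log2 fold change -1.60, SE 0.61). Leaving out 1 library let Dmkn be fitted in 4 of 6 cases, with an unadjusted p under 0.05 in 2.

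The promoters of 4 of these genes are shown because their RNAs lay on one side together. Each is the 250 bases before a RefSeq start site in GRCm38.p6, the assembly also called mm10, read 5′ to 3′ on the strand of the gene, with capitals for a match to any of 4 motifs on either strand. These were the core of the TATA box, written TATAAA, the CAAT box, written CCAAT, the GC box bound by Sp factors, written GGGCGG, and the E-box bound by Usf factors, written CACGTG; no match overlapped another in the promoters shown. They lie at chr7:30698676-30698925 (2200002J24Rik), chr7:30711959-30712208 (Atp4a), chr7:30729535-30729784 (Tmem147) and chr7:30751221-30751470 (Sbsn).
2200002J24Rik: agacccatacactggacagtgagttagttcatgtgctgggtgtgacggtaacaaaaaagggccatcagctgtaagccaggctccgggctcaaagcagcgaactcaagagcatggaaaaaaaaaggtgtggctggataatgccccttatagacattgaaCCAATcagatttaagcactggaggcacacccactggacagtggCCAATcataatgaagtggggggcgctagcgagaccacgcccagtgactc
Atp4a: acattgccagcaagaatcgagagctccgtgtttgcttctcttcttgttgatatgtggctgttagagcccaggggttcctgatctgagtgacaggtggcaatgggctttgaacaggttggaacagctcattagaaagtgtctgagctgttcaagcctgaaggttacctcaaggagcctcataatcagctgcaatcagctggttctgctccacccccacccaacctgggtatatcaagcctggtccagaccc
Tmem147: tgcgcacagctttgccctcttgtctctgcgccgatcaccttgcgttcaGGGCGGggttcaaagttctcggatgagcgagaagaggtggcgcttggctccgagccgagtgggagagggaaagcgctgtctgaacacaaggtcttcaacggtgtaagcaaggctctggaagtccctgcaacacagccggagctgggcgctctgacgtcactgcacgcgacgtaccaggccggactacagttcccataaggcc
Sbsn: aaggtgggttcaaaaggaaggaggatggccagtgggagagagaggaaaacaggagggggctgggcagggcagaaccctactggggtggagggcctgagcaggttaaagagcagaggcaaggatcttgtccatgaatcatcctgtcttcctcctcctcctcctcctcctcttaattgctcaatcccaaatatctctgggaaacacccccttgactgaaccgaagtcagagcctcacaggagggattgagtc
The letters the 4 promoters hold are not shared. That of 2200002J24Rik holds CCAAT at -92 and -49, counted from the start site, that of Tmem147 holds GGGCGG at -202, and those of Atp4a and Sbsn hold none of the 4 motifs in this window.

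**Figure D2:**
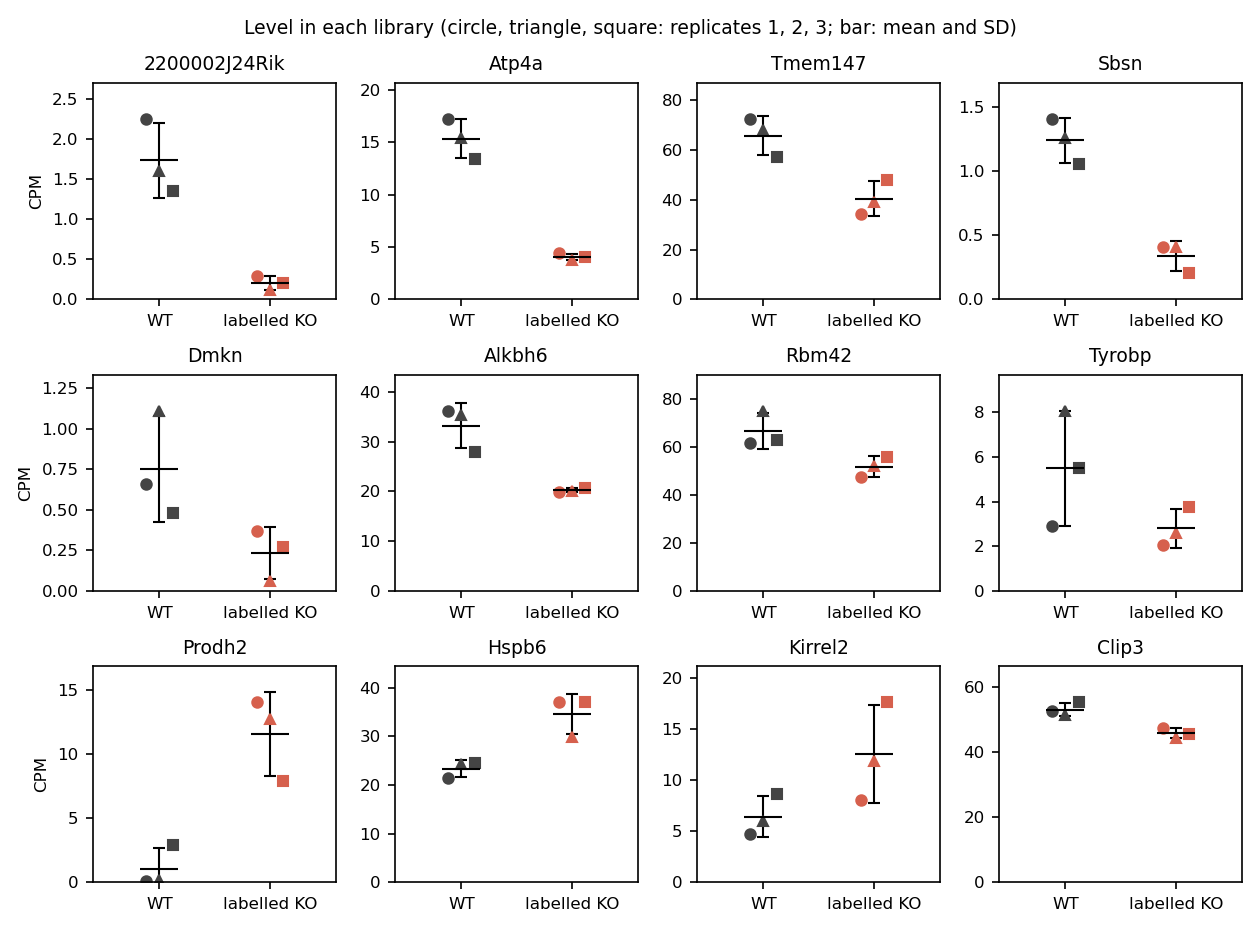
CPM in each library of 12 neighbours of Ffar2, by genotype, with symbols for replicates 1, 2 and 3 and bars for the mean and SD of 3 libraries; each panel starts at 0. Atp4a stood at 13.4 to 17.2 CPM in WT and 3.81 to 4.39 CPM in the libraries labelled KO, whereas Tyrobp and Kirrel2 overlap between the groups.

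The genes of ion transport include Atp4a (above) and the FXYD genes. The FXYD genes lie on the upper side of Ffar2, with log2 fold changes on both sides of 0. Fxyd5, Fxyd7 and Fxyd1 lie side by side, and Lgi4 lies between Fxyd1 and Fxyd3. Fxyd5 had a log2 fold change of -0.48 (SE 0.32), Fxyd7 of -1.09 (SE 0.70), Fxyd3 of 0.07 (SE 0.25) and Fxyd1, phospholemman, of 1.71 (SE 0.82), and none reached an unadjusted p under 0.05 in the fit on genotype alone. With the acinar level of each library as a covariate (below), Fxyd7 went to -2.04 and Fxyd5 to -0.69, both then at an unadjusted p under 0.05. Fxyd7 was at 1.5, 3.53 and 1.01 CPM in WT and 0.369, 0.644 and 1.92 CPM in the libraries labelled KO, and its log2 fold change was -2.01 without replicate 3 labelled KO, which also brought it under an unadjusted p of 0.05, and -0.41 without WT replicate 2. Total-count scaling also brought Fxyd5 under that limit, at -0.66. The sign of Fxyd3 turned under total-count scaling, to -0.088. In the islets labelled KO the levels of Fxyd1 spread widely, at 1.15, 5.68 and 14.9 CPM, against 1.67, 3.29 and 1.59 CPM in WT. Fxyd3 and Lgi4 overlap by 401 bases on opposite strands, and since strand use is not given in the sources used here, reads of one may have been counted for the other.

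Of the 3 tested genes of metabolism, Prodh2 was higher at an unadjusted p under 0.05. Prodh2 (chr7:30493658-30513402, plus strand) encodes a mitochondrial hydroxyproline dehydrogenase, known from liver and kidney. It had 2, 4 and 61 counts in WT and 343, 218 and 115 in the libraries labelled KO, which are 0.0880, 0.194 and 2.94 CPM against 14.1, 12.8 and 7.88 CPM. The gene was near absent in WT replicates 1 and 2, low in WT replicate 3 and clearly present in all 3 libraries labelled KO. Summed counts gave a level 11.6-fold higher in the libraries labelled KO (95% counting interval 8.98 to 15.1). That interval covers counting error only and leaves out the spread between libraries. The fitted log2 fold change was 3.44 (SE 0.97, 95% interval 1.16 to 5.73, edgeR adjusted p = 0.852). WT replicate 3 sets the WT level. Leaving out each library in turn gave log2 fold changes from 2.88 to 6.32. In both genotypes the library with the smallest acinar share had the highest Prodh2. Its promoter, chr7:30493408-30493657, is shown for that contrast, with CCAAT read on the other strand (ATTGG) in capitals at -189.
Prodh2: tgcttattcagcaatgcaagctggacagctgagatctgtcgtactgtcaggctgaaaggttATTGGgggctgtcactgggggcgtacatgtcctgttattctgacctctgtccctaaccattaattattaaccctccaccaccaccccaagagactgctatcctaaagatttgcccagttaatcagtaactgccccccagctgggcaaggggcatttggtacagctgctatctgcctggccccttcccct
Sdhaf1, an assembly factor of succinate dehydrogenase, was at 17.8 to 21.0 CPM in WT and 18.2 to 20.4 CPM in the libraries labelled KO, and the groups overlapped. The hepcidin genes, Hamp and Hamp2, encode the liver hormone of iron control and its mouse paralogue. Hamp had 4, 4 and 7 counts in WT and 17, 6 and 2 in the libraries labelled KO, too few to be tested.

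Of the 7 tested genes that act in transcription or on RNA, Alkbh6 and Rbm42 were lower at an unadjusted p under 0.05. Alkbh6 (chr7:30308753-30314303, plus strand), a member of the AlkB family of dioxygenases, was at 36.2, 35.4 and 27.9 CPM in WT and 19.9, 20.03 and 20.6 CPM in the libraries labelled KO. The libraries labelled KO were nearly equal, and all were under the lowest WT library. The means of 33.2 ± 4.58 and 20.2 ± 0.401 CPM (SD, n = 3 each) differed 1.65-fold (log2 fold change -0.72, SE 0.12, 95% interval -1.01 to -0.43, edgeR adjusted p = 0.852; DESeq2 adjusted p = 0.0269). In GENCODE M21 an exon of Alkbh6 shares bases with Gm24757 on the same strand.

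Rbm42, an RNA-binding protein, was at 61.6, 75.1 and 62.7 CPM in WT and 47.5, 52.0 and 55.9 CPM in the libraries labelled KO, with no overlap (log2 fold change -0.36, SE 0.12, edgeR adjusted p = 0.852), and lost its unadjusted p under 0.05 without WT replicate 2. It shares exon bases with Gm21982 in GENCODE M21. U2af1l4, a splicing factor, was also lower in every library labelled KO, by little (log2 fold change -0.14). Usf2, Wbp7 (now Kmt2b), Polr2i and Lin37, which act in E-box binding, histone methylation, RNA polymerase II and the DREAM complex, each had overlapping groups.

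The 9 tested genes of the cytoskeleton and its regulators held 1 lower and 1 higher gene at an unadjusted p under 0.05. Hspb6 (chr7:30553302-30555439, plus strand), a small heat shock protein of muscle, was at 21.4, 24.3 and 24.5 CPM in WT and 37.0, 29.8 and 37.1 CPM in the libraries labelled KO. Every library labelled KO was above every WT library. The means of 23.4 ± 1.71 and 34.6 ± 4.18 CPM (SD, n = 3 each) differed 1.48-fold (log2 fold change 0.57, SE 0.12, 95% interval 0.28 to 0.85, edgeR adjusted p = 0.852). Hspb6 ends 1 base from Lin37, and in GENCODE M21 its exons overlap those of Lin37 and of BC053749 (now Proser3) on the other strand, so reads may be shared between them. Its promoter, chr7:30553051-30553300, is shown as the only one of the 42 found for the neighbours with TATAAA, in capitals at -29, with GGGCGG at -47.
Hspb6: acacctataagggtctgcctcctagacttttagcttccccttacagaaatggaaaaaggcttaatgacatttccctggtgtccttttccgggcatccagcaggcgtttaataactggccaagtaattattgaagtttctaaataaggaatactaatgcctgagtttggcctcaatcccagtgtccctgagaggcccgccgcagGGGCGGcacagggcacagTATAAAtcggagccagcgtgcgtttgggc
Clip3, a microtubule-associated protein, was at 52.6, 51.3 and 55.4 CPM in WT and 47.5, 44.5 and 45.6 CPM in the libraries labelled KO. The groups did not overlap but lay close (log2 fold change -0.21, SE 0.09, edgeR adjusted p = 0.852), and an unadjusted p under 0.05 was kept in 1 of 6 cases with a library left out. Capns1, the small regulatory subunit of calpain, had the libraries labelled KO below (log2 fold change -0.20, SE 0.10), and Arhgap33 had them above (0.24).

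Of the 11 tested genes of adhesion and membranes, Tmem147 (above) was lower and Kirrel2 higher at an unadjusted p under 0.05. Kirrel2, also called filtrin, is a nephrin-like adhesion protein that beta cells are known to express. It was at 4.71, 6.0 and 8.66 CPM in WT and 8.13, 11.9 and 17.7 CPM in the libraries labelled KO. The highest WT library was above the lowest labelled KO, and an unadjusted p under 0.05 was kept in 3 of 6 cases with a library left out (log2 fold change 0.95, SE 0.34, edgeR adjusted p = 0.852). With the acinar covariate (below) its log2 fold change was 0.70, and its unadjusted p was no longer under 0.05. Nphs1, nephrin, starts 2542 bases from Kirrel2 and is read the other way, with a log2 fold change of 1.03 (SE 0.56).

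By the authors' RPKM, which are per length and pooled per genotype, the neighbour with the highest level was Aplp1, an amyloid precursor-like protein of neural and endocrine cells, at 391 in WT and 362 in the group labelled KO. Capns1 followed at 115 and 102, Psenen, the gamma-secretase subunit, at 92.4 and 87.1, Tmem147 at 72.7 and 45.3, and Gramd1a, a sterol transporter, at 37.4 and 43.6. Of the 49, 2 were above 100 RPKM in WT, 17 between 10 and 100, 19 between 1 and 10 and 11 at 1 or less, with a median of 4.6. Between genotypes the log2 fold changes of Aplp1 (-0.14, SE 0.15), Psenen (-0.08, SE 0.10) and Gramd1a (0.18, SE 0.13) did not reach an unadjusted p under 0.05.

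Of the 4 tested immune genes, Tyrobp (chr7:30413788-30417579, plus strand), a signalling adaptor of myeloid and natural killer cells, was lower at an unadjusted p under 0.05. It was at 2.90, 8.08 and 5.49 CPM in WT and 2.05, 2.58 and 3.77 CPM in the libraries labelled KO. The lowest WT library lay inside the range of the libraries labelled KO (log2 fold change -0.98, SE 0.41, edgeR adjusted p = 0.852), and the call was kept in 2 of 6 cases with a library left out. Most markers of myeloid cells had a log2 fold change of the same sign. Their summed level was 201, 280 and 223 CPM in WT and 177, 178 and 212 CPM in the libraries labelled KO. These sums overlapped between the groups. Of the 16 tested, 1 had a log2 fold change above 0 (median -0.33), beside 7502 of all 14082 genes. An unadjusted p under 0.05 was reached by 1 of the 16, beside 4.69% of all genes. The part of these markers in the difference of Tyrobp was not tested. Hcst, the adaptor read towards Tyrobp from 132 bases away, had 5, 3 and 3 counts in WT and 1, 4 and 5 in the libraries labelled KO. Cd22, a B cell lectin, had 16, 47 and 18 counts in WT and 10, 7 and 11 in the libraries labelled KO. WT replicate 2 stood above the other libraries. The gene had a log2 fold change of -1.31 (SE 0.56, edgeR adjusted p = 0.852), which was -0.61 without WT replicate 2. B cell markers summed to 11.3, 18.6 and 27.3 CPM in WT and 15.8, 9.08 and 5.14 CPM in the libraries labelled KO, whose part was likewise not tested. Tmem149 (now Igflr1) went the other way from Tyrobp and Cd22. It was at 0.924, 1.40 and 1.16 CPM in WT and 1.89, 1.58 and 1.58 CPM in the libraries labelled KO. Among the tested immune genes only its groups did not overlap (log2 fold change 0.54, SE 0.28, edgeR adjusted p = 0.852). Nfkbid had overlapping groups (log2 fold change -0.61, SE 0.43).

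**Figure D3:**
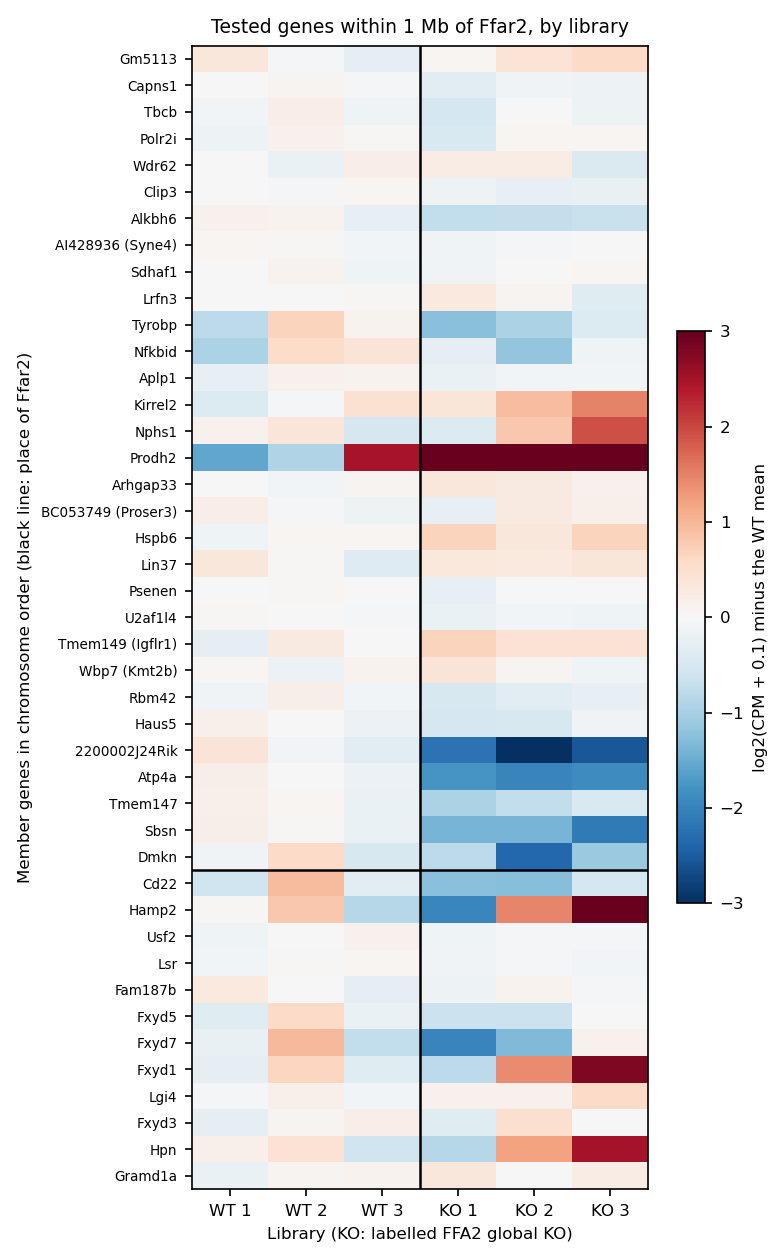
Level of 43 of the 44 tested neighbours in each library, as log2(CPM + 0.1) minus the WT mean of the gene, in chromosome order, with a line at the place of Ffar2; the colour scale stops at 3 in either direction. The block from 2200002J24Rik to Dmkn is blue in all 3 libraries labelled KO, and Prodh2 is red in all 3, while Hamp2, Fxyd1, Hpn and Nphs1 run from blue in replicate 1 to red in replicate 3.

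Several neighbours, among them Hamp2, Fxyd1, Hpn and Nphs1, were highest in the library with the highest acinar share. Of the 44, 20 (45.5%) were in the order replicate 1 below 2 below 3 in the libraries labelled KO, the order of the acinar share, beside 27.4% of all genes. In both genotypes 8 of 44 (18.2%) were in acinar order (Sdhaf1, Nphs1, Psenen, Hamp2, Fxyd7, Fxyd1, Lgi4 and Hpn), beside 8.25% of all genes. These orders were read within each genotype. Over all 6 libraries, Sdhaf1, Psenen and Fxyd7 were highest in WT replicate 2. Hamp2 was at 2.95, 5.08 and 1.54 CPM in WT and 0.657, 8.02 and 25.6 CPM in the libraries labelled KO. Hpn, hepsin, a membrane serine protease, was at 5.77, 7.06 and 3.37 CPM and 2.79, 12.1 and 29.7 CPM. For both genes replicate 1 labelled KO was below every WT library and replicate 3 labelled KO above.

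With the acinar level of each library as a covariate, the log2 fold change of Hamp2 went from 1.82 (SE 1.05) to -0.49, that of Fxyd1 from 1.71 to 0.17, that of Hpn from 1.44 (SE 0.74) to 0.02 and that of Nphs1 from 1.03 to 0.12. Of the other 4 genes in acinar order, Fxyd7 went further from 0, from -1.09 to -2.04, Lgi4 from 0.30 to 0.17, Psenen from -0.08 to -0.16 and Sdhaf1 from -0.01 to -0.08. The genotype fit of Hamp2, Fxyd1, Hpn and Nphs1 also rests on single libraries. Without replicate 3 labelled KO their log2 fold changes were 0.41, 0.62, 0.44 and 0.28, and without replicate 1 labelled KO they were 2.39, 2.23, 1.94 and 1.45, the latter all at an unadjusted p under 0.05. Of the 13 genes at an unadjusted p under 0.05, 11 kept it with the covariate, and 19 of the 44 had it in all (43.2%, beside 19.4% of all genes), with 0 passing after adjustment. Those that lost it were Kirrel2, whose log2 fold change went from 0.95 to 0.70, and Clip3, from -0.21 to -0.18. Atp4a was as low with the covariate (-1.91) as without it.

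**Figure D4:**
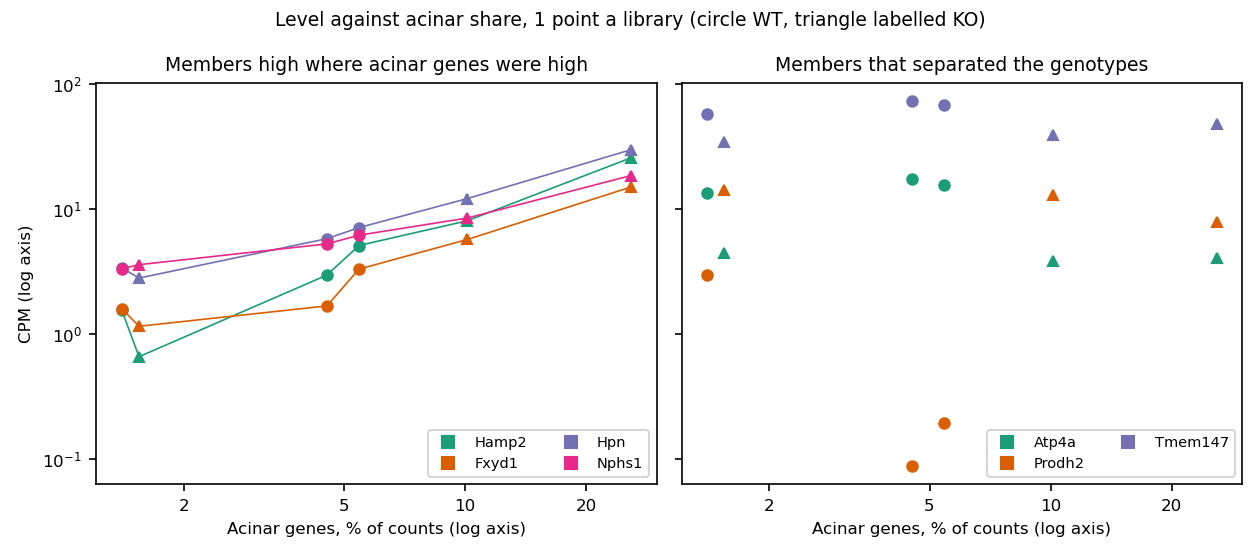
CPM of 7 neighbours against the acinar share of counts, both on log axes, 1 point a library (circles WT, triangles labelled FFA2 global KO). On the left, Hamp2, Fxyd1, Hpn and Nphs1 are highest in the library with an acinar share of 25.9%. On the right, Atp4a and Tmem147 are lower and Prodh2 higher in all 3 libraries labelled KO than in all 3 WT. No WT library has a share above 5.44%, so the groups cannot be compared at high acinar share.

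In 12 lists of genes that work with the neighbours but lie elsewhere, 93 of 104 genes were tested, 0 had an adjusted p under 0.05 by edgeR, and 3 had an unadjusted p under 0.05 (3.23%, beside 4.69% of all genes). These were Hcfc2 (log2 fold change 0.34, SE 0.11) and Rbbp5 (0.41, SE 0.16) of the 8 tested partners of the histone methyltransferase complex of Wbp7, and Kirrel3 (-1.21, SE 0.41) of the 7 tested partners of nephrin. Kirrel3 was at 0.792, 1.16 and 1.64 CPM in WT and 0.410, 0.468 and 0.685 CPM in the libraries labelled KO, the other way from Kirrel2. The list of the sodium pump, which FXYD proteins bind, held 7 tested genes, among them Fxyd6. Their median log2 fold change was -0.25, the value of Fxyd6, with 6 below 0. The 10 of gamma-secretase, which holds Psenen, had a median of 0.00, and the 11 of RNA polymerase II, which holds Polr2i, one of -0.13.

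The neighbourhood is tightly packed. Between the 41 pairs of genes next to each other the median gap was 2.36 kb, and 10 pairs stood head to head, 3 of them within 1 kb. GENCODE M21 lists exon bases shared with another gene for 25 of the 49, on the opposite strand for 19 and on the same strand for 8, so some counts may hold reads of a second gene. In the authors' table Psenen and U2af1l4 start 155 bases apart, and Psenen had 2.54 to 2.92 counts for each count of U2af1l4 in all 6 libraries. The same ratio was 3.19 to 3.96 for Tbcb and Polr2i, which start 44 bases apart, and 5.37 to 8.97 for Lsr and Fam187b, 334 bases apart. Whether these spreads differ beyond counting error was not tested. The stretch between Psenen and U2af1l4, chr7:30563185-30563339, is printed on the plus strand because the genes lie head to head around it in the authors' table, and none of the 4 motifs is in it. RefSeq also lists a Psenen start 20 bases inside it, and in GENCODE M21 exons of the genes share bases.
Psenen to U2af1l4: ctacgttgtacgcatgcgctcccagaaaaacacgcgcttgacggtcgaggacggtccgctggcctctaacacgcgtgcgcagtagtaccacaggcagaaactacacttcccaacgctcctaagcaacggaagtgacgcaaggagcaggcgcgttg

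RefSeq promoters were found for 42 of the 49 genes, and the shares that hold each motif are set beside those of all promoters. CCAAT stood in 13 of 42 (31.0%), beside 34.5% of 27025 promoters in the table, and GGGCGG in 15 (35.7%), beside 32.9%. TATAAA was in 1 (2.38%), beside 13.0%, and CACGTG, the E-box that Usf2 binds, in 1, beside 6.05%. The median GC content was 55.6%, beside 52.0% over all.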

How the data were processed

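Isolated-islet RNA was analysed in 6 libraries, 3 WT and 3 labelled FFA2 global KO, grouped by their labels; the labels do not say which mice formed each pool, so p-values measure the spread between these pools. The authors aligned reads with TopHat (2.0.8b) and ran Cufflinks and Cuffdiff (2.1.1) on mm10, per the methods and the submitters' processing notes; what counted the reads, and how it used strand and reads with several matches, is not given in the sources used here. For each library the authors deposited estimated counts by gene, without normalization, and for each genotype a pooled RPKM. The deposited comparison also holds fold changes, test scores, p-values and q-values, which were not used.

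Estimated counts were rounded (478 genes had values other than whole numbers, 9 of them off by over 0.1). Left out were 158 names with several values and 15 genes that the authors' caller skipped and lists at 0 in a whole group; none is a neighbour of Ffar2 described here. The 22750 genes left were filtered with filterByExpr (minimum count 10, minimum total 15), scaled by TMM and tested with edgeR 4.0.16 in R 4.3.3 (quasi-likelihood, genotype only, 2-sided, Benjamini-Hochberg threshold 0.05). Standard errors are the log2 fold change over the root of F, and the biological coefficient of variation was 21.5%. Cuffdiff, the study's own test, needs reads and was not run. DESeq2 1.42.0, limma 3.58.1 (voom), other scalings and filters, an acinar covariate, a replicate block and each library left out were the alternatives. Counting intervals are exact binomial at 95% on counts summed over the libraries of a group. They cover counting error only, and the spread between libraries is not in them.

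The genes and lists were chosen with earlier results of these data known. Named genes are those at an unadjusted p under 0.05 or called by DESeq2, the 5 of highest WT RPKM, the FXYD, hepcidin, Tyrobp and nephrin families and up to 2 genes of lowest p per partner list; further genes were named after their values were seen. Start sites and promoters are from RefSeq on GRCm38.p6 and exon overlaps from GENCODE M21. A single neighbour enters the counts but its own result is not reported here.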

Additional observations from a re-analysis of the deposited data

How the results depend on the processing

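No neighbour passed at an adjusted p under 0.05 in edgeR, and 1 did with no filter on low counts, 1 with the skipped genes kept (Atp4a in both) and 4 with DESeq2. Over all genes these counts were 0, 1, 11 and 8. The skipped genes are listed at 0 in a whole group. With them kept, Atp4a had an edgeR unadjusted p of 5.12e-06, beside 5.26e-06 in the main fit. Leaving out each library in turn gave 0 at each step, and 8 to 16 neighbours at an unadjusted p under 0.05 beside 13 with all libraries. Over all genes the latter count was 661, from 225 to 1238 with a library left out, and 2727 with the acinar covariate. Neighbours with no overlap numbered 15, and 16 to 23 with a library left out (36.4% to 52.3%), where fewer libraries have to separate and the share over all genes was 15.8% to 26.3%, beside 11.2% with all. Total-count scaling moved the median of all genes from 0.02 to -0.14. Of 384 alternative log2 fold changes of 23 named neighbours, 373 kept their sign and side of an adjusted p of 0.05. Another 6 passed that limit only in the alternative, and 5 turned in sign. No neighbour passed it in the main fit, so a call could be gained but not lost. Crossings of an unadjusted p of 0.05 are not in these counts. Fxyd3 turned to -0.088 with total counts only, to -0.029 with the acinar covariate, and to -0.07 without WT replicate 1 and -0.18 without replicate 2 labelled KO (range -0.18 to 0.26), and Hamp2 to -0.49 with the acinar covariate; the cause was not tested. Genes under about 1 CPM, such as Dmkn, rest on few counts, and for the 5 not tested no difference could be shown at this depth.

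Same-numbered libraries did not deviate together (correlations of 0.11, -0.14 and -0.34). WT replicate 2 gave -0.50 with replicate 1 labelled KO and 0.59 with replicate 3 labelled KO. With values that large between unlike numbers, these correlations cannot tell whether the numbers pair the libraries, and the labels do not say. With the replicate number as a block, 11 of the 44 neighbours had an unadjusted p under 0.05, beside 3.22% of all genes, and 0 passed after adjustment.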
